A study of Mus musculus with 4 samples.

Results

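Cholesterol and fatty acid synthesis was followed in sorted mouse colon cells through 35 gene symbols, for enzymes of both pathways and proteins that control them. The members were taken by symbol from the deposited table, and 34 of the 35 were among its 14519 genes. The exception, Msmo1, is in the table only under an older symbol and is described apart. All 34 passed the filter on low values, which kept 10183 genes.

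The colonic epithelium of mice was sorted into Reg4-dsRed+ cells, called Reg4+ DCS (deep crypt secretory) cells, and Lgr5-GFP+ cells, called Lgr5+ cells. Each population gave 2 libraries, from 2 rounds of sorting and library preparation stated to be biological replicates. Both populations came from reporter alleles, and no treatment is named for either. The sources used here do not give the strain, age and sex of the mice, or how many were pooled. RNA was read by CEL-seq, which tags the 3′ ends of transcripts, and values are in RPM, reads per gene after scaling each library to a total of 1000000. An RPM value of this kind does not scale with transcript length. How genes were counted is not stated in the sources used here, so levels of different genes compare reads and may not compare transcripts.

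Cholesterol is built from acetyl-CoA through mevalonate, which is turned into isoprenoid units, farnesyl diphosphate, squalene and then lanosterol, the first sterol of the pathway. Fatty acids are built from the same acetyl-CoA by acetyl-CoA carboxylase and fatty acid synthase, and are then lengthened by elongases and given double bonds by desaturases. The transcription factors SREBP-1 and SREBP-2 act on both sets of genes. When sterols are scarce, the escort protein SCAP carries SREBPs from the endoplasmic reticulum to the Golgi for cleavage, and when sterols are plentiful the INSIG proteins hold SCAP back. Reg4+ DCS cells are secretory cells among the stem cells at the base of colonic crypts, and Lgr5+ cells include those stem cells.

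The libraries held 7414264 and 5448260 reads for Reg4+ DCS cells and 5205723 and 7955340 reads for Lgr5+ cells. Reg4, the sort marker of the first population, was at 6187 and 5899 RPM in Reg4+ DCS libraries, against 796 and 363 RPM in Lgr5+ libraries. Lgr5 was at 0.989 and 3.13 RPM in Reg4+ DCS libraries, against 46.5 and 48.8 RPM in Lgr5+ libraries. All 9 goblet cell markers were higher in Reg4+ DCS cells, summing to 210619 and 139466 RPM, against 6407 and 2478 RPM in Lgr5+ libraries. Since RPM shares out a fixed total, a gene with the same number of transcripts per cell would read lower where such abundant transcripts are present. All tested genes together had a median log2 fold change of -0.47 (Reg4+ DCS minus Lgr5+, on log2(RPM + 1)), and under median-of-ratios scaling it was 0.03. Proliferation genes were higher in Lgr5+ cells for 8 of 9, with sums of 415 and 489 RPM in Reg4+ DCS libraries and 1774 and 1792 RPM in Lgr5+ libraries. All 6 tuft cell markers were also higher in Lgr5+ cells, with sums of 3.45 and 4.17 RPM in Reg4+ DCS libraries against 807.0 and 234 RPM in Lgr5+ libraries. Both Reg4+ DCS libraries had Pou2f3 and Alox5ap at 0. All 6 passed the filter on low values only through both Lgr5+ libraries, so a call could go in that direction alone. Absorptive colonocyte markers (8 of 9 in the table) summed to 444 and 553 RPM in Reg4+ DCS libraries, against 1051 and 228 RPM in Lgr5+ libraries. Guca2a alone, which was higher in Reg4+ DCS cells, gave 339 and 505 RPM in Reg4+ DCS libraries, against 211 and 67.5 RPM in Lgr5+ libraries. The other 7 summed to 105 and 47.5 RPM in Reg4+ DCS libraries, against 840.2 and 160.0 RPM in Lgr5+ libraries, and 3 of them were higher in Lgr5+ cells. Leukocyte markers (6 of 10 in the table) summed to 2.78 and 2.35 RPM in Reg4+ DCS libraries, against 59.0 and 54.4 RPM in Lgr5+ libraries. Ptprc, Cd3e, Cd79a and Cd79b were at 0 in Reg4+ DCS libraries. The Lgr5+ sums were mostly Ptprc (40.1 and 9.55 RPM) and Cd74 (13.4 and 40.5 RPM), which differed between the replicates in opposite directions. The 1 adipocyte marker in the table of 7, Cidec, had no value above 0 in Reg4+ DCS libraries, against 0.768 and 0.377 RPM in Lgr5+ libraries. What part these differences in cell content and scaling have in the results that follow was not tested. In such bulk libraries fewer cells of a type and less RNA per cell cannot be told apart.

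Promoters of 4 of the genes that were higher in Reg4+ DCS cells are shown, since SREBPs act at promoters. They belong to Hmgcs1, to the feedback protein Insig1 and to the sterol branch enzymes Lss and Cyp51. Each is the 250 bases before a RefSeq start (GRCm38.p6, the same coordinates as mm10), read 5′ to 3′ along the gene. Capitals mark matches, on either strand, to a sterol response element (TCACNCCAC), an E-box (CACGTG) or a CCAAT box (CCAAT, or ATTGG on the other strand).
Hmgcs1, chr13:119690101-119690350, plus strand: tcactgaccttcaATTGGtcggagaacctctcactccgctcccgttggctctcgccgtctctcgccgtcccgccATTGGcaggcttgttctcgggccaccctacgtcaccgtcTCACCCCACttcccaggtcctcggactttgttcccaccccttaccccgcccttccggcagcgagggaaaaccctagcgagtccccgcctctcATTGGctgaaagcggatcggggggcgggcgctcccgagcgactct
Insig1, chr5:28071162-28071411, plus strand: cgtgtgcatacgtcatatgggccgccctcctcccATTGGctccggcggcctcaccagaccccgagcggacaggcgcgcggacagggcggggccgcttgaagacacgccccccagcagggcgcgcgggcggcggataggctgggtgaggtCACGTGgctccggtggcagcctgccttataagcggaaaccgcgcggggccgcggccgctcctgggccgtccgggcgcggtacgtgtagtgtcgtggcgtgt
Lss, chr10:76531355-76531604, plus strand: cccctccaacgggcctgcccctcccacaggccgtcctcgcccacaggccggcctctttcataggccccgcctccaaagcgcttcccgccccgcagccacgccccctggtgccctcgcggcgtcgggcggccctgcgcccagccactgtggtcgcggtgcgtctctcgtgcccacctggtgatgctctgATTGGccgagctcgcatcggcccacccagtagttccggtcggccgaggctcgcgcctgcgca
Cyp51, chr5:4104698-4104947, minus strand: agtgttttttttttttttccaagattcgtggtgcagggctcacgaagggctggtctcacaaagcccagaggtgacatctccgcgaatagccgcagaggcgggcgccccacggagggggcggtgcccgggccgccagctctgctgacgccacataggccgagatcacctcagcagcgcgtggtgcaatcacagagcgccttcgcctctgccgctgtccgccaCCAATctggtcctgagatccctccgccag

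The Hmgcs1 promoter held the sterol response element as TCACCCCAC, its first base in this reading 137 bases before the start, with ATTGG at 237, 176 and 45 bases before it. The Insig1 promoter held the E-box 101 bases before the start and ATTGG 216 bases before it. The Lss promoter held ATTGG 62 bases before the start, and the Cyp51 promoter held CCAAT 29 bases before it. These distances are from RefSeq starts, and the GENCODE M21 annotation differs. There Insig1 (from 28071363), Lss (from 76531588) and Cyp51 (from 4104746, minus strand) start within the windows shown. By GENCODE M21 the CCAAT box of Cyp51 thus lies inside the gene. Of the 34 members, 27 had a promoter in the RefSeq table, and a gene was counted where any of its promoters held the letters. The CCAAT box was found in 21 of the 27 (77.8%), against 40.8% of the 7685 tested genes with a promoter and 37.5% of all 27025 genes of that table. By role it was found in 13 of 14 mevalonate and sterol genes and in 4 of 8 fatty acid genes. The E-box was found in 6 of the 27 members (22.2%), against 10.5% of tested genes and 6.86% of all genes. The sterol response element in this spelling was found in 1 member, Hmgcs1 (3.70%), against 1.28% of tested genes and 1.22% of all genes. Among members higher in Reg4+ DCS cells, 6 of 7 with a promoter held a CCAAT box, against 15 of 20 other members, so that these letters were common in both. These matches are descriptions of the letters in the windows and no record of binding.

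The genes higher in Reg4+ DCS cells were mostly sterol genes. Of the 34 members, 9 were higher in Reg4+ DCS cells, 2 were lower and 23 passed the test in neither direction (limma on log2(RPM + 1), Benjamini-Hochberg adjustment over all tested genes, adjusted p under 0.05). Of all tested genes, 34.1% were called in either direction, with 7.18% toward Reg4+ DCS cells and 26.9% toward Lgr5+ cells. The 9 calls toward Reg4+ DCS cells comprised 7 of 17 mevalonate and sterol genes, 1 of 6 control genes (Insig1) and 1 of 11 fatty acid genes (Elovl6). The 2 calls toward Lgr5+ cells were Fads1 and Acss2, and their share, both of the 34 members and of the 11 fatty acid genes, was below that of all tested genes. At an unadjusted p under 0.05 by limma the members gave 11 toward Reg4+ DCS cells and 5 toward Lgr5+ cells. The share of all tested genes at that unadjusted threshold was not counted, so these counts have no background to be read against. Both Reg4+ DCS libraries lay above both Lgr5+ libraries for 16 members, both lay below for 10 and the groups overlapped for 8. Among all tested genes the first pattern had a share of 16.1% and the second one of 56.2%. The median log2 fold change of the members was 0.22, against -0.47 for all tested genes, and 27 of the 34 lay above that all-gene median.

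**Figure D1:**
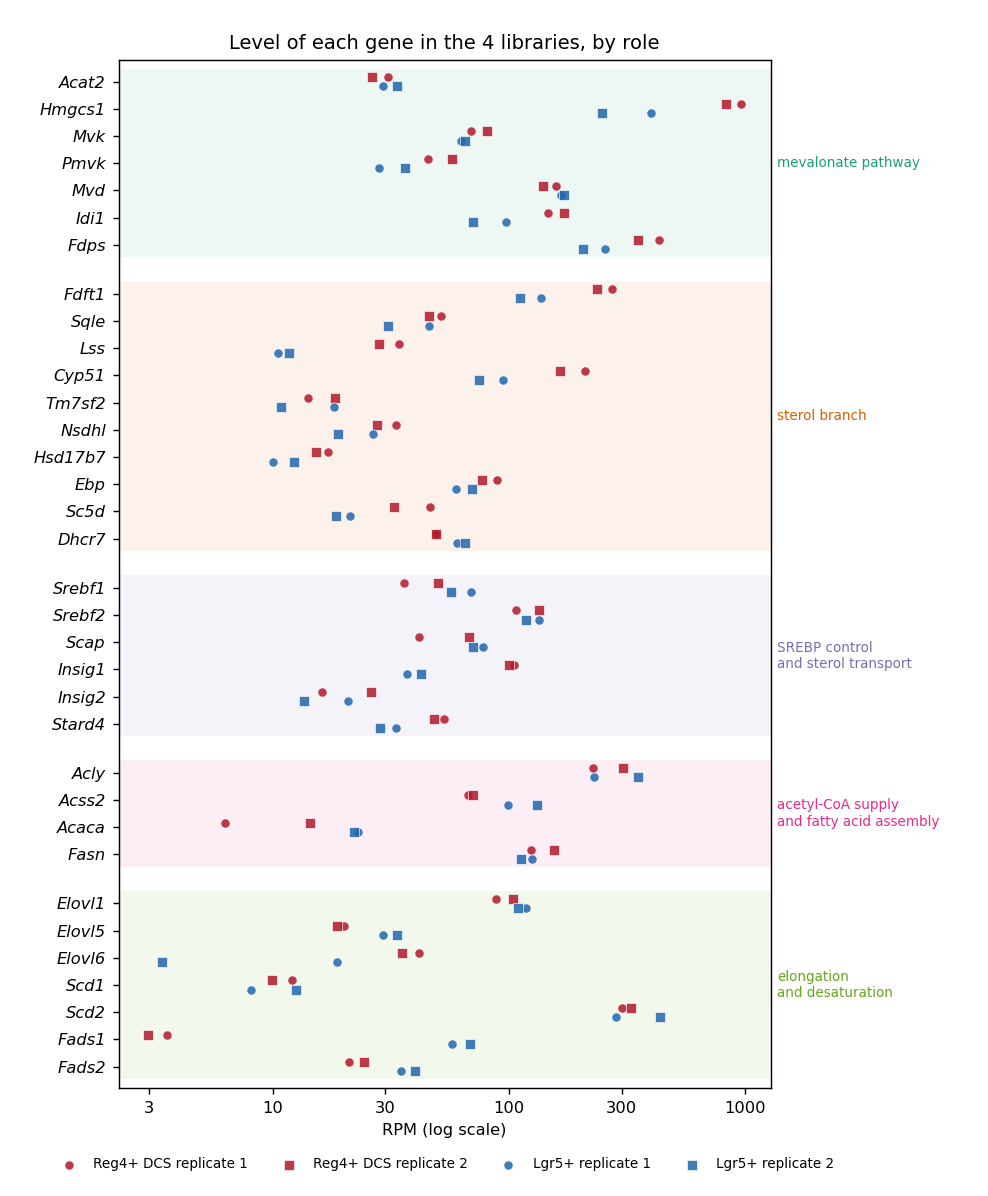
Level of each of the 34 genes in RPM (log axis) in the 4 libraries, grouped by role, with Reg4+ DCS libraries in red above the line and Lgr5+ libraries in blue below it; circles are replicate 1 and squares replicate 2. Hmgcs1 is the most abundant member in Reg4+ DCS libraries, and the widest gap is at Fads1, with Reg4+ DCS libraries at 3.56 and 2.97 RPM and Lgr5+ libraries at 57.4 and 68.3 RPM.

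The scale moved these counts. With library factors from the median of ratios in place of RPM alone, 17 members were called toward Reg4+ DCS cells and 1, Fads1, toward Lgr5+ cells, against 16.0% and 12.3% of all genes tested on that scale. An edgeR quasi-likelihood test on the reads recovered from the RPM values called 13 and 1 members, against 13.5% of genes in each direction. All 9 members higher in Reg4+ DCS cells kept that call on both scales, and no member called on the RPM scale turned direction. Acss2 was not called on either scale. Acat2, Mvd, Dhcr7, Srebf2, Acly, Elovl1 and Scd2 had negative log2 fold changes in RPM and positive ones on both of the other scales, and Scap had a positive one under median-of-ratios scaling only. None of these 8 was called on any of the 3 scales.

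The result also rested on few libraries. Without Reg4+ DCS replicate 1, Insig1 alone of the 9 kept its call (adjusted p = 0.034 by limma), and the other 8 had adjusted p-values of 0.056 to 0.194. Without Reg4+ DCS replicate 2, Idi1, Fdps and Elovl6 were lost, with adjusted p-values of 0.0675 to 0.102, and without Lgr5+ replicate 2 Idi1, Fdps, Sc5d and Elovl6 were lost, with values of 0.0528 to 0.157. All 9 were called without Lgr5+ replicate 1. All 9 had positive log2 fold changes in each of these 4 fits, of 0.62 at the least. Each of these fits also called fewer genes among all tested genes, so a lost call is not particular to a member.

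The mevalonate pathway, which turns acetyl-CoA into farnesyl diphosphate, had 3 of its 7 genes higher in Reg4+ DCS cells and none lower, with a median log2 fold change of 0.66. Hmgcs1 (chr13:119690379-119708260, plus strand, GENCODE M21 on mm10) encodes the cytosolic enzyme that makes HMG-CoA. It had 962 and 828 RPM in Reg4+ DCS libraries, against 399.6 and 248 RPM in Lgr5+ libraries, and so was the most abundant of the members in Reg4+ DCS cells. The means were 895 ± 94.3 RPM for Reg4+ DCS cells and 324 ± 107 RPM for Lgr5+ cells (SD, n = 2 each), a 2.76-fold difference. Its log2 fold change was 1.5 ± 0.28 (SE; adjusted p = 0.00581 by limma; 0.0615 without Reg4+ DCS replicate 1). Leaving out each library in turn put the fold between 2.24 and 3.61. It is the member whose promoter held the sterol response element.

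Idi1, the isomerase of isopentenyl diphosphate, had 146 and 172 RPM in Reg4+ DCS libraries, against 97.6 and 70.6 RPM in Lgr5+ libraries. The groups were apart, with a 1.89-fold higher mean and a log2 fold change of 0.92 ± 0.25 (SE; adjusted p = 0.0246 by limma). It was no longer called without Reg4+ DCS replicate 1 (adjusted p = 0.0755), Reg4+ DCS replicate 2 (0.101) or Lgr5+ replicate 2 (0.124). Fdps, the synthase of farnesyl diphosphate, had 432 and 353 RPM in Reg4+ DCS libraries, against 255 and 206 RPM in Lgr5+ libraries. Its mean was 1.71-fold higher, with a log2 fold change of 0.77 ± 0.24 (SE; adjusted p = 0.0375 by limma). With every library kept, Fdps lost its call with no filter on low values (adjusted p = 0.0519 by limma) and without the limma trend (0.066). It was not called without Reg4+ DCS replicate 1 (adjusted p = 0.194), Reg4+ DCS replicate 2 (0.0675) or Lgr5+ replicate 2 (0.157).

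The other 4 genes of this stretch did not pass the test. Pmvk, which adds the second phosphate to mevalonate, was at 45.7 and 57.2 RPM in Reg4+ DCS libraries and 28.2 and 36.3 RPM in Lgr5+ libraries (log2 fold change 0.66, adjusted p = 0.0862 by limma). Its groups did not overlap, and it was called on both other scales. Mvk, the mevalonate kinase, was at 69.1 and 80.6 RPM in Reg4+ DCS libraries and 62.6 and 65.4 RPM in Lgr5+ libraries, with a log2 fold change of 0.22. It too was apart between the groups and was called on both other scales (adjusted p = 0.0337 by limma under median-of-ratios scaling and 0.0447 by edgeR). Mvd, the decarboxylase, and Acat2, a cytosolic acetoacetyl-CoA thiolase, had log2 fold changes of -0.18 and -0.14, which were positive on the other scales. Members of one linear route thus spanned log2 fold changes of -0.18 to 1.5.

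**Figure D2:**
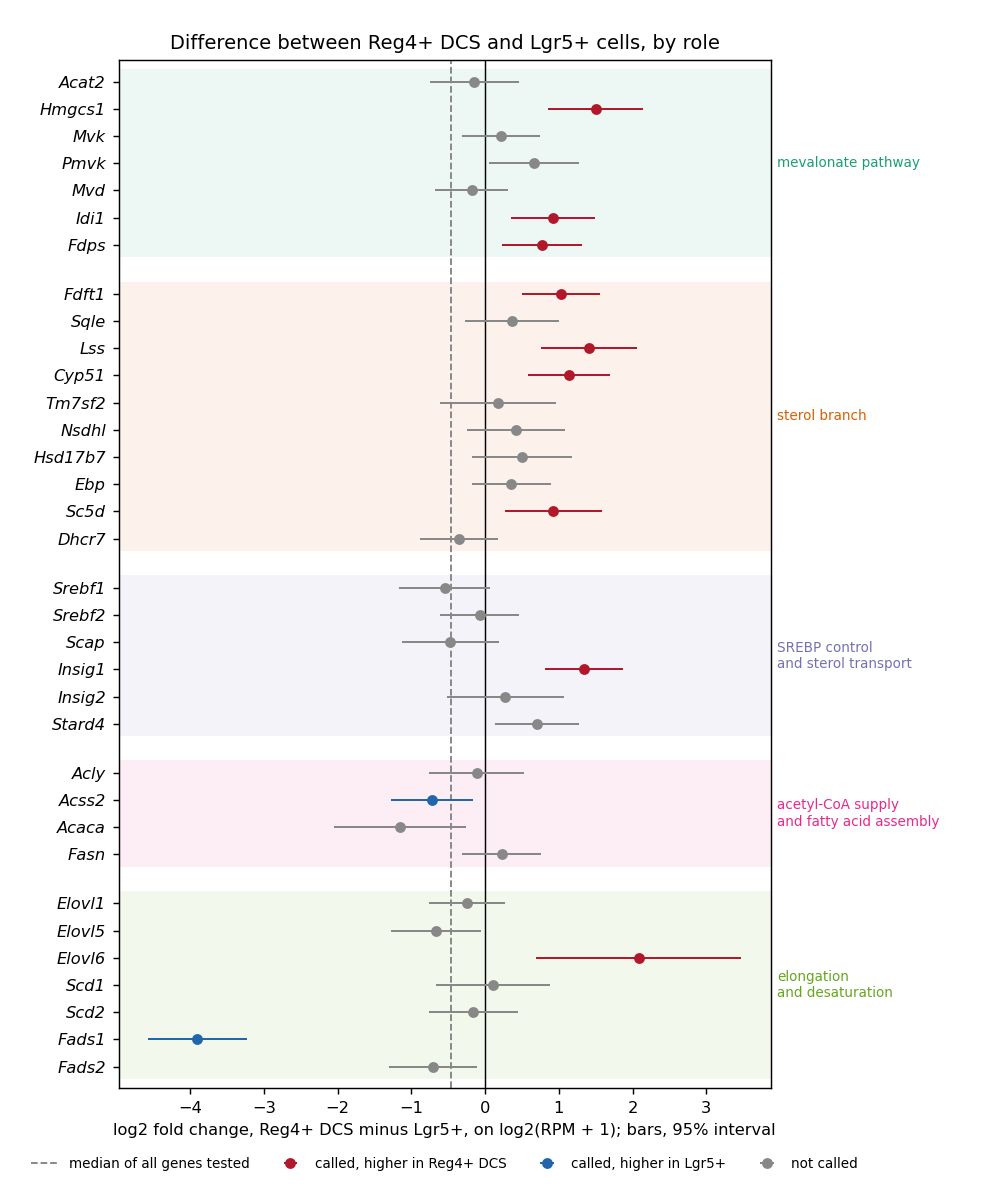
Log2 fold change of each of the 34 genes (Reg4+ DCS minus Lgr5+, on log2(RPM + 1)) with its 95% interval from limma, grouped by role; red genes were called higher in Reg4+ DCS cells, blue ones higher in Lgr5+ cells, grey ones neither. The 9 red genes lie between 0.77 and 2.08 and all but Insig1 and Elovl6 are in the upper 2 groups, while the dashed line marks the all-gene median of -0.47.

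The sterol branch, from squalene to cholesterol, had 4 of its 10 measured genes higher in Reg4+ DCS cells and none lower, with a median log2 fold change of 0.46. Fdft1, squalene synthase, had 272 and 236 RPM in Reg4+ DCS libraries, against 137 and 111 RPM in Lgr5+ libraries. Its mean was 2.05-fold higher, with a log2 fold change of 1.03 ± 0.23 (SE; adjusted p = 0.0117 by limma; 0.0803 without Reg4+ DCS replicate 1). Lss, the synthase that closes the sterol rings, had 34.4 and 28.3 RPM in Reg4+ DCS libraries, against 10.6 and 11.7 RPM in Lgr5+ libraries. That was a 2.81-fold difference of means and a log2 fold change of 1.41 ± 0.28 (SE; adjusted p = 0.00764 by limma; 0.056 without Reg4+ DCS replicate 1). Both genes lay apart between the groups by more than the distance between libraries of 1 group.

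Cyp51, the demethylase of lanosterol, had 209 and 165 RPM in Reg4+ DCS libraries, against 94.5 and 74.8 RPM in Lgr5+ libraries. Its mean was 2.21-fold higher, with a log2 fold change of 1.14 ± 0.24 (SE; adjusted p = 0.0101 by limma; 0.0754 without Reg4+ DCS replicate 1). Sc5d, a desaturase near the end of the pathway, had 46.2 and 32.6 RPM in Reg4+ DCS libraries, against 21.3 and 18.6 RPM in Lgr5+ libraries. Its log2 fold change was 0.93 ± 0.28 (SE; adjusted p = 0.0377 by limma), with a 1.97-fold difference of means. Sc5d was not called without Reg4+ DCS replicate 1 or Lgr5+ replicate 2, although leaving out each library in turn kept the fold between 1.63 and 2.31. With every library kept, its call was lost with no filter on low values (adjusted p = 0.0557 by limma).

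The 6 sterol branch genes that were not called had log2 fold changes of -0.35 to 0.50. Sqle, squalene epoxidase, a rate-limiting enzyme of this branch, was at 51.4 and 46.0 RPM in Reg4+ DCS libraries and 45.9 and 30.7 RPM in Lgr5+ libraries. Its 1.27-fold difference had an interval of -0.27 to 1.00 on the log2 scale (adjusted p = 0.327 by limma), which holds both no difference and one as large as that of Idi1 on the RPM scale. Hsd17b7, Nsdhl and Ebp, which act on the sterol ring after lanosterol, had log2 fold changes of 0.50, 0.42 and 0.35, and each had both Reg4+ DCS libraries above both Lgr5+ libraries. Tm7sf2, a sterol reductase, overlapped between the groups, at 14.1 and 18.3 RPM in Reg4+ DCS libraries and 18.2 and 10.8 RPM in Lgr5+ libraries. Dhcr7, the last reductase of the pathway, was the one gene here with both Reg4+ DCS libraries lower, at 49.1 and 48.9 RPM against 60.5 and 65.2 RPM in Lgr5+ libraries (log2 fold change -0.35, adjusted p = 0.254 by limma). Its log2 fold change was positive on both other scales. Under median-of-ratios scaling 4 of these 6 were called higher in Reg4+ DCS cells, Sqle with an adjusted p of 0.0423 by limma, Nsdhl with 0.0418, Hsd17b7 with 0.0375 and Ebp with 0.0337. Of the 6, edgeR called Ebp alone (adjusted p = 0.0411).

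The methylsterol oxygenase that follows Cyp51 in the pathway, Msmo1, is listed under its older symbol Sc4mol, which RefSeq gives as a synonym. It fell outside the selection by symbol and was looked up after its values were seen. Sc4mol had 188.8 and 152.4 RPM in Reg4+ DCS libraries, against 72.8 and 50.9 RPM in Lgr5+ libraries, on 1404 and 823 reads against 379 and 405. The log2 fold change was 1.46 ± 0.26 (SE; adjusted p = 0.00477 by limma), and its 2.76-fold difference of means was as large as that of Hmgcs1. It was called under each of the 12 alternative settings.

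Summed over the 17 mevalonate and sterol genes, Reg4+ DCS libraries held 2659 and 2352 RPM, against 1522 and 1255 RPM in Lgr5+ libraries. The ratio of the means was 1.80, and without Hmgcs1 it was 1.51. The sum over the 11 fatty acid genes was 914 and 1071 RPM in Reg4+ DCS libraries, against 1029.6 and 1322 RPM in Lgr5+ libraries, a ratio of 0.844, and there the libraries of the groups overlapped. By median, the mevalonate and sterol genes stood 0.97 above the all-gene median on the log2 scale and the fatty acid genes 0.23 above it. In these units 14 of the 17 mevalonate and sterol genes and 3 of the 11 fatty acid genes had positive log2 fold changes, and under median-of-ratios scaling 17 of 17 and 6 of 11 had. The sums were over genes chosen with earlier results known and were not tested.

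**Figure D3:**
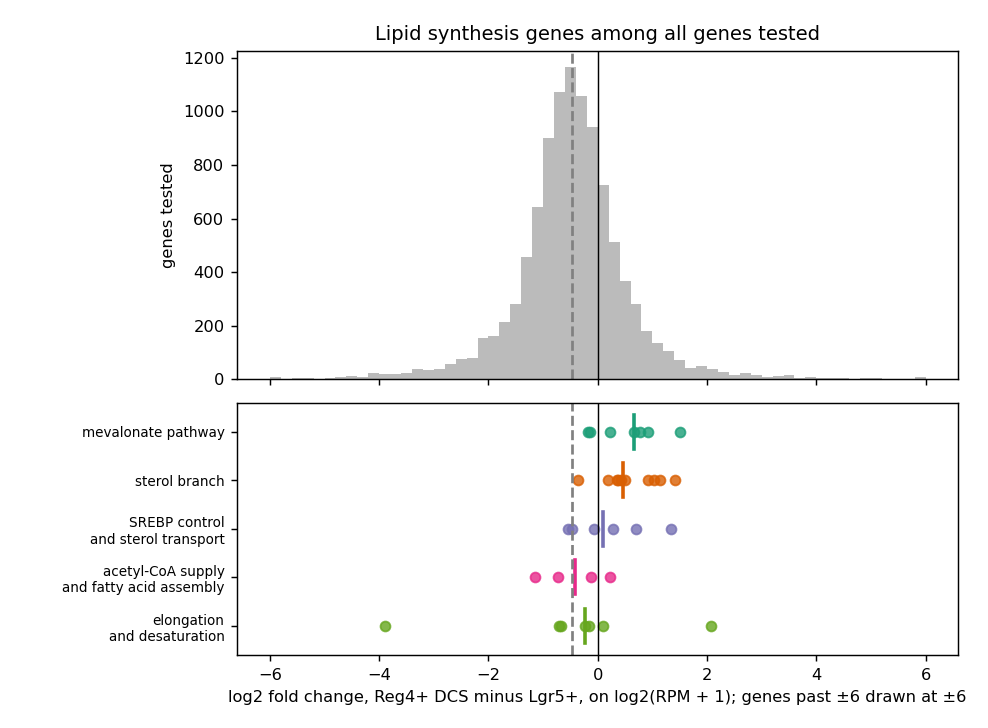
Upper panel, number of genes tested per bin of log2 fold change (Reg4+ DCS minus Lgr5+); lower panel, the members by role, each point a gene and each short line a role's median. The medians of the mevalonate pathway (0.66) and the sterol branch (0.46) lie to the right of 0, that of fatty acid assembly (-0.42) lies near the dashed all-gene median of -0.47, and Fads1 and Elovl6 lie far out on opposite sides.

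Among the control genes, the transcript of the feedback protein was higher in Reg4+ DCS cells, while neither SREBP gene nor Scap passed the test. Insig1 (chr5:28071363-28078662, plus strand), which holds SCAP in the endoplasmic reticulum and is itself a target of SREBPs, had 105 and 99.9 RPM in Reg4+ DCS libraries, against 37.1 and 42.6 RPM in Lgr5+ libraries. The means were 103 ± 3.82 RPM for Reg4+ DCS cells and 39.8 ± 3.92 RPM for Lgr5+ cells (SD, n = 2 each), a 2.57-fold difference. Its log2 fold change was 1.35 ± 0.23 (SE; adjusted p = 0.00399 by limma), and of the 9 higher members it was the one called in all 12 alternative settings. Its paralog Insig2 overlapped between the groups, at 16.2 and 26.02 RPM in Reg4+ DCS libraries and 20.7 and 13.6 RPM in Lgr5+ libraries (log2 fold change 0.28, interval -0.52 to 1.07). Insig1 made up 86.7% and 79.3% of the summed RPM of the pair in Reg4+ DCS libraries, and 64.1% and 75.8% in Lgr5+ libraries.

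Srebf2, the factor that acts mainly on sterol genes, was at 107 and 134 RPM in Reg4+ DCS libraries, versus 134 and 118 RPM in Lgr5+ libraries. Its log2 fold change was -0.07, with an interval of -0.61 to 0.46 (adjusted p = 0.83 by limma), and the groups overlapped. Srebf1, which acts mainly on fatty acid genes, was at 36.04 and 50.3 RPM in Reg4+ DCS libraries, versus 69.2 and 56.8 RPM in Lgr5+ libraries, with a log2 fold change of -0.55 and an interval of -1.16 to 0.07. Scap was at 41.5 and 67.5 RPM in Reg4+ DCS libraries, versus 77.4 and 70.4 RPM in Lgr5+ libraries (log2 fold change -0.47, adjusted p = 0.222 by limma). None of these 3 can be called alike between the populations from such intervals, and transcript levels do not record SREBP cleavage. Stard4, a carrier of cholesterol between membranes, was at 53.4 and 48.0 RPM in Reg4+ DCS libraries, versus 33.2 and 28.4 RPM in Lgr5+ libraries. Its groups did not overlap, but its log2 fold change of 0.70 ± 0.25 (SE) had an adjusted p of 0.0586 by limma. That value was 0.00743 under median-of-ratios scaling and 0.0103 by edgeR.

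The enzymes that supply and assemble fatty acids showed no gene higher in Reg4+ DCS cells. Acss2, which makes acetyl-CoA from acetate, had 67.4 and 70.8 RPM in Reg4+ DCS libraries, against 99.3 and 131 RPM in Lgr5+ libraries. It was 1.67-fold lower in Reg4+ DCS cells, with a log2 fold change of -0.72 ± 0.24 (SE; adjusted p = 0.0496 by limma). The call was lost under 7 of 12 alternatives. Among them were median-of-ratios scaling, where the log2 fold change was -0.21, and the fits without Reg4+ DCS replicate 1 (adjusted p = 0.171), Reg4+ DCS replicate 2 (0.108) or Lgr5+ replicate 2 (0.278). Acly, which makes cytosolic acetyl-CoA from citrate, was at 228 and 305 RPM in Reg4+ DCS libraries, versus 230.3 and 353 RPM in Lgr5+ libraries, and the groups overlapped.

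Acaca, the carboxylase that commits acetyl-CoA to fatty acids, was low, at 6.26 and 14.4 RPM in Reg4+ DCS libraries and 22.9 and 22.1 RPM in Lgr5+ libraries. Both Reg4+ DCS libraries lay below both Lgr5+ libraries, with 2.18-fold lower means, but the log2 fold change of -1.15 ± 0.39 (SE) had an adjusted p of 0.0518 by limma. Without Reg4+ DCS replicate 1 that value was 0.231 (1.56-fold lower), and without Reg4+ DCS replicate 2 it was 0.0206 (3.59-fold lower). Fasn, the synthase that builds palmitate, was at 124 and 156 RPM in Reg4+ DCS libraries, versus 125.8 and 113 RPM in Lgr5+ libraries. The groups overlapped, and its log2 fold change of 0.22 had an interval of -0.31 to 0.75 (adjusted p = 0.468 by limma). Under median-of-ratios scaling Fasn was called, with a log2 fold change of 0.73 (adjusted p = 0.0294 by limma).

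The elongases and desaturases held the widest spread of the module, with log2 fold changes of -3.90 to 2.08. Fads1 (chr19:10182888-10196877, plus strand), the desaturase that finishes arachidonic and eicosapentaenoic acid, had 3.56 and 2.97 RPM in Reg4+ DCS libraries, against 57.4 and 68.3 RPM in Lgr5+ libraries. These values rested on 24 and 16 reads in Reg4+ DCS libraries and on 299 and 543 reads in Lgr5+ libraries. The mean was 19.2-fold lower in Reg4+ DCS cells, with a log2 fold change of -3.90 ± 0.29 (SE; adjusted p = 0.000174 by limma). It passed the filter on low values only through its Lgr5+ libraries, and without either of them it was not tested. In the other 10 alternatives it was called. Fads2 (chr19:10062765-10101746, minus strand), the desaturase of the earlier step, lies beside Fads1 on chromosome 19. It was at 21.0 and 24.3 RPM in Reg4+ DCS libraries, versus 34.96 and 40.2 RPM in Lgr5+ libraries, which did not overlap (log2 fold change -0.71, adjusted p = 0.0667 by limma). Fads1 held 14.5% and 10.9% of the summed RPM of the pair in Reg4+ DCS libraries, against 62.2% and 62.9% in Lgr5+ libraries. Fads1 was thus the less abundant gene of the pair in Reg4+ DCS libraries and the more abundant one in Lgr5+ libraries.

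Elovl6 (chr3:129532355-129638495, plus strand), the elongase that lengthens palmitate to stearate, was the fatty acid gene higher in Reg4+ DCS cells. It had 41.8 and 35.1 RPM in Reg4+ DCS libraries, against 18.6 and 3.39 RPM in Lgr5+ libraries. The Lgr5+ libraries were far apart, and the means were 38.4 ± 4.70 RPM for Reg4+ DCS cells and 11.01 ± 10.8 RPM for Lgr5+ cells (SD, n = 2 each). The mean fold was 3.49, the log2 fold change 2.08 ± 0.60 (SE) and the adjusted p 0.0312 by limma. That adjusted p was 0.079 with no filter on low values, where Elovl6 was not called. Against Lgr5+ replicate 1 alone the fold was 2.06 (adjusted p = 0.0528), and against Lgr5+ replicate 2 alone it was 11.3. The call did not hold without Reg4+ DCS replicate 1 (adjusted p = 0.165) or Reg4+ DCS replicate 2 (0.102). Reg4 and the sums of goblet cell, tuft cell and absorptive colonocyte markers given above were likewise higher in Lgr5+ replicate 1 than in Lgr5+ replicate 2. For goblet cell markers the sums were 6407 RPM in Lgr5+ replicate 1 and 2478 RPM in Lgr5+ replicate 2. The sum of proliferation genes was not higher there (1774 and 1792 RPM). Fads1 went the other way, with 57.4 RPM in Lgr5+ replicate 1 and 68.3 RPM in Lgr5+ replicate 2. What part these cell types had in the Elovl6 and Fads1 values was not tested.

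The other elongases and both stearoyl-CoA desaturases were not called. Elovl5, which lengthens polyunsaturated fatty acids, was at 20.1 and 18.7 RPM in Reg4+ DCS libraries, versus 29.2 and 33.7 RPM in Lgr5+ libraries, apart but with an adjusted p of 0.0813 by limma (log2 fold change -0.67). Elovl1, which acts on very long chains, was at 88.4 and 104 RPM in Reg4+ DCS libraries, versus 118 and 109 RPM in Lgr5+ libraries. Of the elongases listed here, Elovl6 made up 27.8% and 22.3% of the summed RPM in Reg4+ DCS libraries, against 11.3% and 2.32% in Lgr5+ libraries. Scd2, which puts the first double bond into stearate, was at 301 and 330.0 RPM in Reg4+ DCS libraries, versus 285 and 435 RPM in Lgr5+ libraries, and the groups overlapped. Its paralog Scd1 was at 12.1 and 9.89 RPM in Reg4+ DCS libraries, versus 8.07 and 12.6 RPM in Lgr5+ libraries. Scd2 held 96.2% and 97.1% of the pair in Reg4+ DCS libraries, and 97.2% in each Lgr5+ library, so that the more abundant gene of the pair was the same in both populations. How reads shared by such close paralogs were counted is not stated in the sources used here.

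The Reg4+ DCS values are each the mean of 2 separately scaled parts, which could be read apart for all 34 members. For each of the 9 higher members, all 4 parts lay above both Lgr5+ libraries, and for Fads1 and Acss2 all 4 lay below. Elovl6 was at 59.7 and 23.8 RPM in the parts of replicate 1 and at 36.3 and 33.96 RPM in those of replicate 2. Fads1 lay between 2.66 and 4.23 RPM in the parts. The sources used here do not say what the parts were, and they were not counted as replicates. The member values rested on 16 to 6854 reads, and 17 of the 136 values rested on fewer than 100.

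Beyond the members, 84 further genes of sterol and fatty acid metabolism were listed, of which 74 were in the table and 64 were tested. Among these, 5 were higher in Reg4+ DCS cells and 16 were lower, against 7.18% and 26.9% of the 10183 genes tested. More lower than higher genes were thus found across the whole test and not in these lists alone. Their median log2 fold change was -0.26, which stood 0.21 above the all-gene median. Under median-of-ratios scaling the counts for these lists were 13 and 9, against 16.0% and 12.3% of all genes tested on that scale. By edgeR they were 12 and 9, against 13.5% of genes in each direction. Of 6 tested further sterol enzymes, 1 was called in each direction (3 and 1 under median-of-ratios scaling). Lbr, a nuclear membrane protein that is also a sterol reductase, had 89.8 and 99.1 RPM in Reg4+ DCS libraries, against 205 and 315 RPM in Lgr5+ libraries (2.75-fold lower, adjusted p = 0.0056 by limma; 0.0532 without Reg4+ DCS replicate 1). Tm7sf2, the member that also encodes a sterol reductase, overlapped between the groups. Of 9 tested genes of other mevalonate branches, 1 was lower in Reg4+ DCS cells. That was Pdss1, a subunit of the enzyme that makes the side chain of ubiquinone, at 2.76 and 3.79 RPM in Reg4+ DCS libraries against 15.6 and 14.2 RPM in Lgr5+ libraries (adjusted p = 0.00382 by limma).

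Of 10 tested genes of cholesterol uptake, storage and export, 1 was called in each direction (3 and 1 under median-of-ratios scaling). Of all tested genes, 7.18% were called toward Reg4+ DCS cells and 26.9% toward Lgr5+ cells (16.0% and 12.3% under median-of-ratios scaling). Abca1, which exports cholesterol to apolipoproteins, was at 0.453 and 0.499 RPM in Reg4+ DCS libraries, against 15.8 and 8.55 RPM in Lgr5+ libraries (adjusted p = 0.00109 by limma). The Abca1 values in Reg4+ DCS cells came from 5 and 3 reads.

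The list of SREBP cleavage and sterol or nutrient sensing had 4 of 8 tested genes higher in Lgr5+ cells and 1 higher in Reg4+ DCS cells. Mlxipl, which encodes ChREBP, a glucose-responsive factor acting on fatty acid synthesis genes, had 7.59 and 18.0 RPM in Reg4+ DCS libraries, against 161 and 178 RPM in Lgr5+ libraries. It was 13.3-fold lower in Reg4+ DCS cells (22.4-fold without Reg4+ DCS replicate 2; log2 fold change -3.74, adjusted p = 0.00041 by limma) and was called in all 12 alternatives. Its relative Mlxip had 30.1 and 31.6 RPM in Reg4+ DCS libraries, against 70.5 and 72.3 RPM in Lgr5+ libraries (adjusted p = 0.00738 by limma). Nr1h3, the oxysterol receptor LXR alpha, had 2.49 and 3.76 RPM in Reg4+ DCS libraries, against 15.6 and 19.4 RPM in Lgr5+ libraries (5.58-fold lower, adjusted p = 0.00256 by limma). The gene higher in Reg4+ DCS cells was Prkaa2, a catalytic subunit of the AMP-activated kinase, with 51.8 and 72.6 RPM in Reg4+ DCS libraries, against 24.4 and 10.1 RPM in Lgr5+ libraries (3.61-fold, 6.19-fold without Lgr5+ replicate 1; adjusted p = 0.01 by limma, 0.0668 without Reg4+ DCS replicate 2).

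Of 13 tested enzymes of fatty acid supply and elongation, 5 were higher in Lgr5+ cells and none was higher in Reg4+ DCS cells by limma. At an unadjusted p under 0.05 the counts were 1 toward Reg4+ DCS cells and 5 toward Lgr5+ cells, with no share of all genes counted at that threshold. For this list edgeR called 1 and 3, and median-of-ratios scaling gave 2 and 3. The median log2 fold change of this list was 0.05 below the all-gene median of -0.47, with 26.9% of all tested genes called toward Lgr5+ cells. Acacb, the mitochondrial carboxylase, was at 0.717 and 1.86 RPM in Reg4+ DCS libraries, against 32.3 and 14.3 RPM in Lgr5+ libraries (adjusted p = 0.00154 by limma). Mecr, a reductase of mitochondrial fatty acid synthesis, had 64.7 and 72.4 RPM in Reg4+ DCS libraries, against 169 and 249.5 RPM in Lgr5+ libraries (3.05-fold lower, adjusted p = 0.00336 by limma). Ptpla, the older symbol of the elongation dehydratase Hacd1, had 9.59 and 13.2 RPM in Reg4+ DCS libraries, against 36.3 and 45.6 RPM in Lgr5+ libraries (adjusted p = 0.00367 by limma). Acacb and Abca1, like Nr1h3 and Pdss1, passed the filter on low values only through both Lgr5+ libraries.

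Of 18 tested genes of fatty acid activation and glycerolipid assembly, 2 were higher in Reg4+ DCS cells and 4 were lower. The shares of all tested genes were 7.18% and 26.9%. Under median-of-ratios scaling and by edgeR the counts for this list were 4 and 0. The shares of all genes were 16.0% and 12.3% under median-of-ratios scaling and 13.5% in each direction by edgeR. The median log2 fold change of this list was 0.28 above the all-gene median. The final acyltransferases of triglyceride synthesis were split. Dgat2 had 61.7 and 59.8 RPM in Reg4+ DCS libraries, against 33.8 and 23.4 RPM in Lgr5+ libraries (2.13-fold, adjusted p = 0.018 by limma). Dgat1 had 23.7 and 37.2 RPM in Reg4+ DCS libraries, against 65.5 and 52.0 RPM in Lgr5+ libraries (1.93-fold lower, adjusted p = 0.039 by limma). The acyl-CoA synthetases were split likewise. Acsl1 had 25.9 and 38.3 RPM in Reg4+ DCS libraries, against 8.84 and 17.6 RPM in Lgr5+ libraries (2.43-fold, adjusted p = 0.0343 by limma). Acsl5 had 48.6 and 51.7 RPM in Reg4+ DCS libraries, against 102 and 117 RPM in Lgr5+ libraries (2.18-fold lower, adjusted p = 0.00853 by limma). Agpat5, an acyltransferase of phosphatidic acid synthesis, had 29.9 and 36.5 RPM in Reg4+ DCS libraries, against 55.9 and 68.9 RPM in Lgr5+ libraries (adjusted p = 0.0299 by limma). Without Reg4+ DCS replicate 1 all 5 lost their calls, with adjusted p-values of 0.0883 for Dgat2, 0.191 for Dgat1, 0.0753 for Acsl1, 0.0537 for Acsl5 and 0.136 for Agpat5. Without Reg4+ DCS replicate 2 the losses were Dgat2 (0.0601), Acsl1 (0.153) and Agpat5 (0.0507). Without Lgr5+ replicate 1 they were Dgat1 (0.13) and Acsl1 (0.136), and without Lgr5+ replicate 2 they were Dgat2 (0.088) and Agpat5 (0.142). Under median-of-ratios scaling and by edgeR, Dgat2 and Acsl1 kept their calls and Dgat1, Acsl5 and Agpat5 did not. The remaining genes called lower in the last 3 lists were Mbtps1, Tecr, Ptplad1 and Agpat6, named here after their values were seen, and none of these 4 was called under median-of-ratios scaling, by edgeR or without Reg4+ DCS replicate 1.

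**Figure D4:**
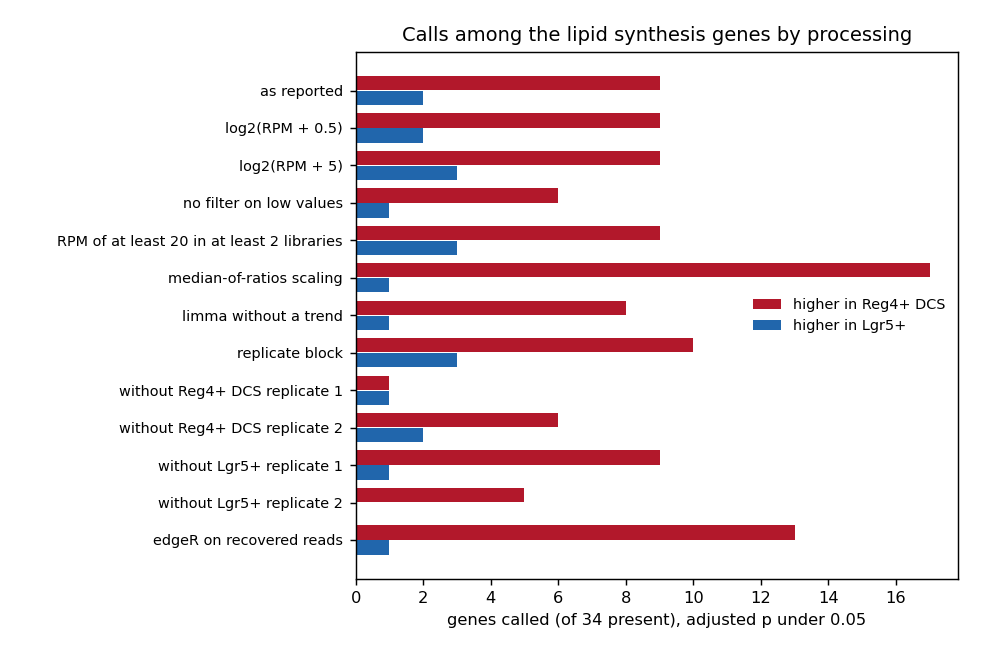
Number of the 34 members called higher (red) or lower (blue) in Reg4+ DCS cells than in Lgr5+ cells, as reported and under each of 12 alternative settings, at an adjusted p under 0.05. The red count runs from 1 without Reg4+ DCS replicate 1 to 17 under median-of-ratios scaling, with 9 as reported, and the blue count from 0 to 3.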

How the data were processed

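The authors deposited 1 table of RPM values for 14519 genes in 4 columns, each summing to 1000000. BWA 0.6.2-r126 and the build mm10 are named, with no role, per the submitters' processing notes. How genes were counted, and whether molecular identifiers were used, is not stated in the sources used here. Lgr5+ values were whole multiples of 1 read (tolerance 0.01 reads). Reg4+ DCS values were sums of 2 step sizes, as a mean of 2 separately scaled parts gives, and were decoded to whole reads for 99.9% and 99.0% of genes. Amplification copies may be among the reads, and the p-values rest on the spread between 2 libraries per group.

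Genes with at least 5 RPM in at least 2 libraries were tested with limma 3.58.1 (R 4.3.3, empirical Bayes with a trend, two-sided) on log2(RPM + 1), which understates the fold of low genes. The calculation was tested on simulated data, in which a small set of genes changed in random directions. No shift of all genes like the one seen here was built in, so the simulation does not bear on the scaling. edgeR 4.0.16 was run on the recovered reads of 10043 genes as an alternative; it called 1353 genes higher and 1352 lower in Reg4+ DCS cells. Mean folds are ratios of mean RPM. The members and gene lists were chosen with earlier results of these data known. Every member is accounted for. Other pathway genes are named by the largest absolute log2 fold changes, up to 3 called genes per list and direction; some are not reported here. Promoters are RefSeq's and gene positions GENCODE M21's.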

Additional observations from a re-analysis of the deposited data

How the results depend on the processing

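Among the 34 members, 9 were higher and 2 lower in Reg4+ DCS cells by limma. The counts were 9 and 2 with log2(RPM + 0.5), 9 and 3 with log2(RPM + 5), 6 and 1 with no filter on low values, 9 and 3 with a minimum of 20 RPM (31 members tested), and 8 and 1 without the trend. They were 17 and 1 under median-of-ratios scaling and 13 and 1 by edgeR. Leaving out 1 replicate gave 1 to 9 and 0 to 2. For the 64 other pathway genes, the counts were 5 and 16 as reported, 13 and 9 under median-of-ratios scaling and 12 and 9 by edgeR, and 1 to 3 and 8 to 12 with 1 replicate left out. Over all tested genes they were 731 and 2744 as reported, 1618 and 1242 under median-of-ratios scaling, 1353 and 1352 by edgeR, and 349 to 706 and 1060 to 2288 with 1 replicate left out. With 1 library left out, the lone library is taken to vary like the other group. The replicate number as a block gave 10 and 3 members, among them Stard4 (adjusted p = 0.0453) and Acaca (0.0088), 7 and 17 other pathway genes and 910 and 3534 of all genes. Deviations of same-numbered libraries from their group means had a correlation of 0.212. With 2 libraries per group both pairs give that same value by construction. The labels do not say that a number marks a shared round, so the pairing was not used. Genes that could not be decoded, 140 in all, were left out of the edgeR test. Of the 12 alternatives, none turned the direction of a called member.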
